A study of Mus musculus with 24 samples.

Results

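The genotype by IL-15 interaction in spleen-derived natural killer (NK) cells was examined in 16 of the 24 mouse libraries of the series, all of its spleen libraries, chosen by tissue and cell label. The 16 libraries formed 4 groups of 4: naive wild type (WT), naive knockout (KO) of FcRγ, IL-15-treated WT and IL-15-treated KO. The other 8 libraries, from tumour-bearing lung, stayed out of the comparison. RNA was poly(A) enriched and read by bulk sequencing. The route and length of IL-15 treatment, the handling of naive cells, the isolation of NK cells, the way the KO was made and the age of the animals were not stated in the labels or design text read here. The design text calls the samples biological replicates without naming animals, so p-values measure the spread between these samples. IL-15 and any difference in handling between naive and treated cells cannot be told apart.

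FcRγ, the product of Fcer1g, is a small adaptor with an ITAM, the tyrosine motif that recruits kinases of the Syk family. In NK cells it pairs with the Fc receptor CD16 and with NKp46, beside the related adaptor CD3ζ. IL-15 signals through the shared IL-2 receptor beta and gamma chains to JAK kinases and STAT5, and supports survival, growth and division of NK cells. The interaction was the KO minus WT difference under IL-15 minus the KO minus WT difference in naive cells, on the log2 scale. It equals the IL-15 response of KO minus the IL-15 response of WT. A positive value, called a higher interaction here, therefore meant that KO stood higher relative to WT with IL-15 than without it.

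Fcer1g (ENSMUSG00000058715, GRCm38 chr1:171229572-171234365, minus strand, protein coding) was read first as a check of the genotype labels. Levels are CPM (counts scaled to a common library total), and each set of 4 values is in the order of replicates 1 to 4. Fcer1g stood at 836, 769, 843 and 673 CPM in naive WT and at 262, 330, 258 and 254 in IL-15 WT. It stood at 1.29, 7.13, 4.46 and 2.98 CPM in naive KO and at 6.01, 3.91, 8.01 and 4.63 in IL-15 KO. Every WT library was far above every KO library, and the KO mean was 0.509% of WT in naive cells and 2.04% under IL-15. The gene itself passed the interaction test (1.93 ± 0.39 log2 units, ± standard error, adjusted p = 0.0169). WT fell with IL-15 (−1.50 ± 0.26, adjusted p = 8.81e-05), and the residual reads in KO, 13 to 178 counts a naive library and 127 to 273 a treated one, did not pass a change (0.43 ± 0.29, adjusted p = 0.256).

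Library totals were 9.68 to 32.1 M counts, and all 10 NK marker genes were above 1 CPM. A pair of libraries stood apart. Naive KO replicate 1 was shallow, at 9.68 M counts where the others lay between 21.2 and 32.1 M, with 1.18% of counts from mitochondrial genes against 4.19 to 9.29% in the other naive libraries. IL-15 WT replicate 2 had low levels of genes with long exons: the median of genes of at least 10 kb minus that of genes under 1.5 kb was −0.46 log2 units, against 0.21 to 0.66 in the other IL-15 WT libraries. In a fit that weights libraries they received weights of 0.263 and 0.265, and the other 14 received 0.623 to 3.72. Counts below are given with and without them where they differ.

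Of 13344 genes tested, 205 passed the interaction test at an adjusted p under 0.05 (edgeR's quasi-likelihood test), or 1.54%. The interaction was higher for 63 genes (0.472%) and lower for 142 (1.06%), by at least 2-fold for 30 and 96 of them. At an unadjusted p under 0.05 there were 2191 genes. Among the gene lists, cytosolic chaperones held the most higher calls and large cytoskeletal genes the most lower calls. Without naive KO replicate 1 the counts were 69 and 149, and without IL-15 WT replicate 2 they were 301 and 413. Without both libraries they were 352 and 600, and these included all 63 and all 142 genes in the same direction.

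For these genes the KO minus WT difference lay mainly in the naive state. All 205 genes also differed between KO and WT in naive cells, where 20.3% of all genes did so; the 2 contrasts share the naive libraries, so this count is no independent support. All 63 genes with a higher interaction were lower in naive KO, with a median of −1.04 log2 units, and their median KO minus WT value under IL-15 was −0.02. Of the 142 genes with a lower interaction, 141 were higher in naive KO and Gm4955 was lower. Their median was 1.22 in naive cells and 0.04 under IL-15. Under IL-15, 2 of the 205 genes, Fcer1g and Gm4955, differed between KO and WT, against 18 genes or 0.135% of all genes. The median size of the KO minus WT value under IL-15 was 0.08 log2 units, against 0.12 over all genes tested. KO and WT libraries did not overlap in naive cells for 204 of the 205 genes, all but Cish, against 20.5% of all genes. Under IL-15 they did not overlap for 8, against 3.00% of all genes. These libraries also gave the interaction that chose the genes, so nothing is read from either count.

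**Figure D1:**
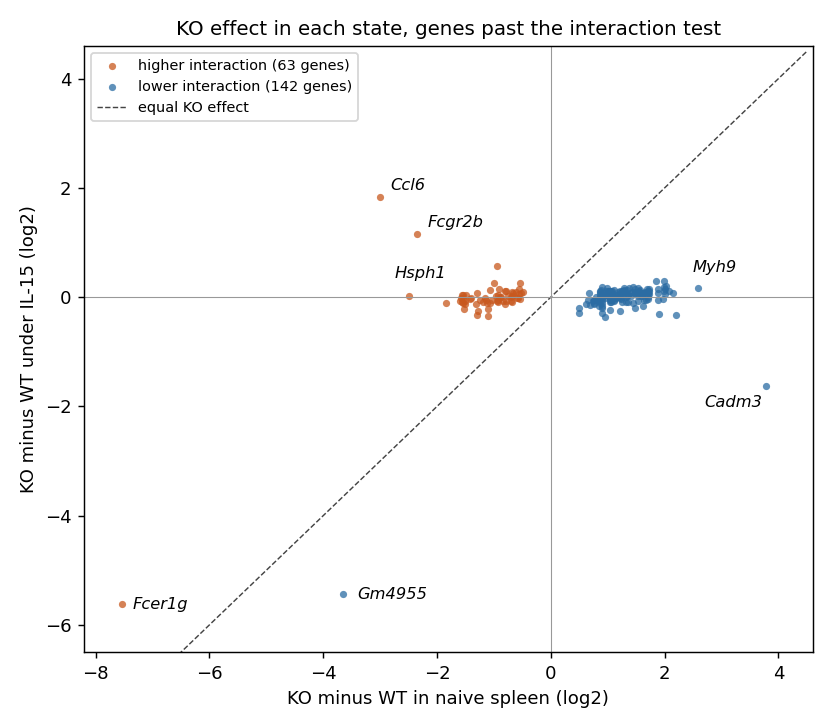
KO minus WT in naive spleen (x axis, log2) against KO minus WT under IL-15 (y axis, log2) for the 205 genes past the interaction test; each point is 1 gene, orange for the 63 with a higher and blue for the 142 with a lower interaction, and the dashed line marks an equal KO effect in both states. Most points lie along the horizontal axis, and Fcer1g and Gm4955 stand low on both axes.

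Read as IL-15 responses, the same genes fell into 3 kinds. IL-15 changed 109 of the 205 in both genotypes, 75 in WT but not KO and 21 in KO but not WT, where 52.4% of all genes passed in WT and 41.7% in KO. Of the 109, 83 rose and 14 fell in both genotypes, and 12 changed in opposite directions. Over all genes, 26.4% rose and 26.0% fell in WT, and 20.7% rose and 21.0% fell in KO. All these shares are for each genotype alone. Shares of all genes changed in both genotypes, in a single genotype or in opposite directions were not computed, so nothing is read from the counts. The difference in response between the genotypes is the interaction itself, so it was tested for each of these genes.

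Cytosolic chaperones were the group with the largest share of calls among the gene lists. These proteins fold and hold other proteins: HSP70 (Hspa8, the constitutive form) works with HSP40 co-chaperones such as Dnaja1 and exchange factors such as Hsph1 (HSP110), and passes clients through Stip1 (HOP) to HSP90 (Hsp90aa1, Hsp90ab1). Of 38 chaperone genes tested, 13 had a higher and 0 a lower interaction, or 34.2% against 1.54% of all genes. The median interaction over all 38 was 0.65 log2 units, against −0.0073 over all genes. In naive cells 21 of the 38 were lower in KO (9.22% of all genes) and 1 was higher (11.1%), with a median of −0.60 log2 units, and under IL-15 the median was −0.02. The list was chosen with earlier results of these data known, so these shares are no independent support. Without naive KO replicate 1 and IL-15 WT replicate 2 together, 13 of the 38 again had a higher interaction.

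Many chaperone genes carry heat shock elements, the DNA motif bound by heat shock factors, near their start. A RefSeq promoter window (GRCm38.p6, 250 bases before to 50 after the start) was found for 9 of the 13 genes, and 4 of the 9 held at least 1 match to GAANNTTC or TTCNNGAA, searched on both strands. The windows of Cacybp, Ahsa2, Ahsa1, Stip1 and Ptges3 held 0 matches. Hsph1 has 2 windows and Dnaja1 has 3, and for each the window with the most matches was taken. Capitals mark the matches, which overlap in Chordc1 and Hsph1. The 4 windows with a match are shown. They lie at chr5:149636287-149636586 (Hsph1, minus strand), chr9:18292017-18292316 (Chordc1, plus strand), chr4:40722218-40722517 (Dnaja1, plus strand) and chr6:128438607-128438906 (Fkbp4, minus strand).
Hsph1: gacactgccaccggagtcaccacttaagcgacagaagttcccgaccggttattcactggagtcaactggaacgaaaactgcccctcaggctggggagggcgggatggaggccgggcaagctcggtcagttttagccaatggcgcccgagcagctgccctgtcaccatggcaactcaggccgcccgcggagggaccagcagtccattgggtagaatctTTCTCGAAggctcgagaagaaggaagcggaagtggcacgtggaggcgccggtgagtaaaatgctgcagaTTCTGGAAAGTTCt
Chordc1: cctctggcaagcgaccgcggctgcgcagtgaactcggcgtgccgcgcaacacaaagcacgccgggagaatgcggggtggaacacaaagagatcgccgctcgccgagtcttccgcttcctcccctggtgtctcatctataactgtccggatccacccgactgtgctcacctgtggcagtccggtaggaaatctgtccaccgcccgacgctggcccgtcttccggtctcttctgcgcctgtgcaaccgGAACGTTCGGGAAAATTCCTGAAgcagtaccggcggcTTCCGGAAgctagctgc
Dnaja1: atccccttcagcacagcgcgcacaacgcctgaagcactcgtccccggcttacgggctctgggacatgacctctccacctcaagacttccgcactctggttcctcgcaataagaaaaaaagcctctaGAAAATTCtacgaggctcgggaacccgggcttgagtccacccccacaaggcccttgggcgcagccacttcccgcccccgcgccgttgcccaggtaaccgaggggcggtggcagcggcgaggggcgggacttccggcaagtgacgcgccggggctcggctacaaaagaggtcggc
Fkbp4: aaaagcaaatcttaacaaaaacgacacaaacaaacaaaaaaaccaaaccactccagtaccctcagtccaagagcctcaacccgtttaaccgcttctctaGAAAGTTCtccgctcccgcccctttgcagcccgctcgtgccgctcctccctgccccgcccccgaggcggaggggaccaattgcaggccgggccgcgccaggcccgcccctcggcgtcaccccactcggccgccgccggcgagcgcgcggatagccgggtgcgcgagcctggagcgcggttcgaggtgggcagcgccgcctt
The motif was in 44.4% of these 9 genes, in 34.8% of the 23 chaperone genes with a window that did not pass, and in 17% of all 27025 genes with a window. It was in 10 (21.3%) of the 47 genes with a window and a higher interaction, and 4 of these 10 were among the 9 chaperone genes. Of the 100 genes with a window and a lower interaction, 8% held it. A match describes these letters and is not a measured binding site.

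Hsph1, the HSP110 exchange factor whose window shown above holds 3 matches, stood at 166, 401, 227 and 293 CPM in naive WT and at 78.1, 43.2, 36.5 and 37.8 in naive KO. Under IL-15 it stood at 63.7, 51.1, 63.1 and 62.4 CPM in WT and at 60.8, 65.8, 58.2 and 59 in KO. Naive WT was above every other group, and naive KO reached past the treated values on both sides, with its replicate 1 the highest of those 3 groups. The interaction was 2.5 ± 0.34 (adjusted p = 0.00191): Hsph1 fell with IL-15 in WT (−2.18 ± 0.24) and did not pass in KO (0.33 ± 0.24, adjusted p = 0.283).

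Hspa8 stood at 2744, 5549, 5003 and 5261 CPM in naive WT against 1362, 1727, 1590 and 1600 in naive KO. Treated libraries stood at 2284, 2199, 2113 and 2200 in WT and at 2150, 2485, 2068 and 2394 in KO. The treated groups overlapped and lay between the naive groups, except that naive WT replicate 1 was the lowest of its group, near the treated level. The interaction was 1.61 ± 0.23 (adjusted p = 0.00197), with a fall in WT (−1.08 ± 0.16) and a rise in KO (0.53 ± 0.16, adjusted p = 0.0126).

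Dnaja1, an HSP40 co-chaperone, stood at 234, 556, 371 and 342 CPM in naive WT and at 121, 116, 135 and 141 in naive KO. Its treated values were 140, 127, 126 and 121 in WT and 109, 127, 120 and 148 in KO. Only naive WT stood above the others. Its interaction was 1.52 ± 0.25 (adjusted p = 0.00507), and the KO change with IL-15 was −0.03 ± 0.18.

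Stip1, which links HSP70 to HSP90, stood at 201, 294, 195 and 270 CPM in naive WT, 113, 78.2, 74.3 and 63.7 in naive KO, 125, 122, 112 and 115 in IL-15 WT, and 115, 130, 115 and 127 in IL-15 KO. Naive WT lay above the treated groups, which overlapped, and naive KO below them except its replicate 1, which was above the lowest treated WT library. Its interaction was 1.58 ± 0.22 (adjusted p = 0.00197), and it fell in WT (−1.01 ± 0.16) and rose in KO (0.57 ± 0.16). Hsp90aa1, the inducible HSP90, stood at 742, 1284, 817 and 764 CPM in naive WT, 362, 358, 381 and 355 in naive KO, and 431 to 621 in the 8 treated libraries, between the naive groups (interaction 1.18 ± 0.22, adjusted p = 0.0107). Hsp90ab1, the constitutive HSP90, differed in that WT did not pass with IL-15 (−0.15 ± 0.10) while KO rose (0.73 ± 0.10, interaction 0.88 ± 0.15, adjusted p = 0.00507).

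The other called members were co-factors of these machines. St13, which binds HSP70, had an interaction of 1.18 ± 0.14, the immunophilin Fkbp4 of 1.39 ± 0.22, and the HSP90 activators Ahsa2 and Ahsa1 of 1.40 and 0.98 log2 units. Cacybp, Chordc1 and Ptges3 (p23) stood at 1.03, 0.96 and 0.83. Dnaja4, an HSP40 gene that the list does not hold, also passed (1.00) and is not in the counts of the list. In the 25 members that did not pass, values ran from −0.51 (Unc45a) to 1.85 (Hspa1b, the inducible HSP70, adjusted p = 0.263). Hsf1, which encodes the main heat shock factor, stood at −0.08. Fits leaving out 1 library each gave 11 to 16 chaperones higher and 0 lower. Chordc1 and Cacybp lost their call in 11 and 6 of these 16 fits, and both lost it, as did Ptges3, with the offset for exon length and GC content described below (adjusted p = 0.162, 0.0982 and 0.0982).

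Some predicted genes near-identical to chaperones moved with them, and reads of a gene and its copy may have been divided between them. Gm12346 aligned to Hsp90aa1 at 99.5% over 2255 bases and had an interaction of 1.44. Gm15542 and Gm7816 aligned to Dnaja1 at 99.4 and 99.3% over 1194 bases each and had interactions of 1.43 and 1.75. These are not counted as separate chaperones.

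**Figure D2:**
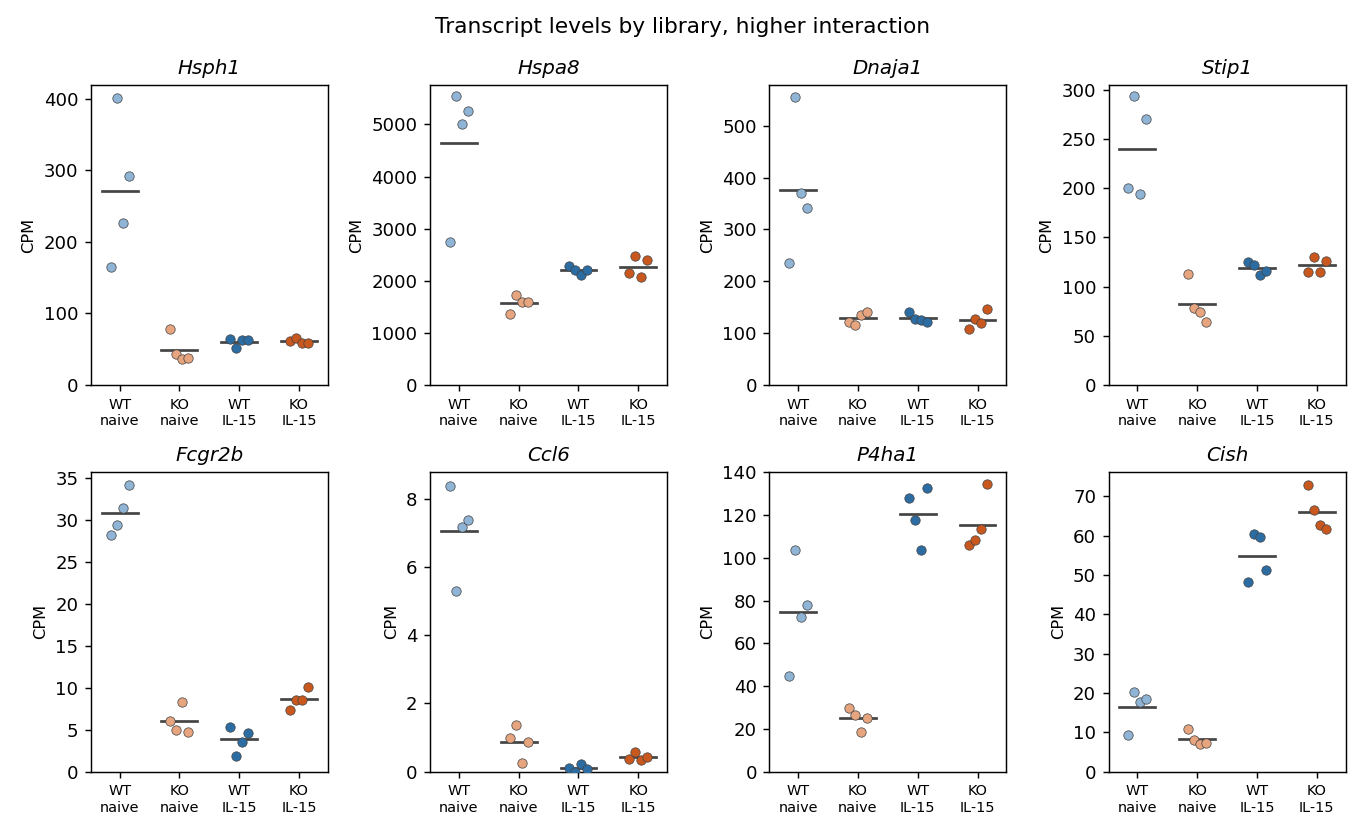
CPM (y axis, from 0) in each of the 16 spleen libraries for 8 genes with a higher interaction; points are libraries, bars are means of 4, and colours are groups. The chaperones Hsph1, Hspa8, Dnaja1 and Stip1 are highest in naive WT with similar levels in both treated groups, Fcgr2b and Ccl6 are low outside naive WT, and P4ha1 and Cish are highest under IL-15.

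A list of 27 tested genes held adaptors of the FcRγ, CD3ζ and DAP12 family, their partner receptors and the inhibitory receptor gene Fcgr2b. In it, Fcer1g, the targeted gene itself, and Fcgr2b had a higher interaction and 0 genes had a lower one. These were 7.41% of the list, against 1.54% of all genes, and the list median was 0.17. Apart from the targeted gene, no adaptor or partner receptor passed. Fcgr2b encodes the inhibitory Fc receptor for IgG and lies near Fcer1g (GRCm38 chr1:170960558-170976547, minus strand). It stood at 28.3, 29.5, 31.5 and 34.2 CPM in naive WT and at 6.06, 5.01, 8.38 and 4.74 in naive KO. Under IL-15 it stood at 5.33, 1.92, 3.58 and 4.62 CPM in WT and at 7.37, 8.59, 8.54 and 10.1 in KO. Naive WT stood far above the rest, and every treated KO library was above every treated WT library. The interaction was 3.50 ± 0.35 (adjusted p = 9.91e-05), the smallest p of all genes. Fcgr2b fell in WT with IL-15 (−2.98 ± 0.26), while the KO change was 0.52 ± 0.25 (adjusted p = 0.0993) and the KO minus WT value under IL-15 was 1.15 ± 0.25 (adjusted p = 0.103). The partners Fcgr3, which encodes CD16, Cd247 (CD3ζ), Tyrobp (DAP12) and Ncr1 (NKp46) did not pass, with interactions of 0.35, 0.23, 0.08 and 0.15.

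Ccl6, a chemokine of myeloid cells and basophils, had the largest positive interaction of the named genes, 4.84 ± 0.80 (adjusted p = 0.00507). It stood at 8.37, 5.29, 7.15 and 7.38 CPM in naive WT and at 0.993, 1.36, 0.27 and 0.881 in naive KO. Treated libraries held 0.121, 0, 0.241 and 0.0899 CPM in WT and 0.378, 0.585, 0.352 and 0.424 in KO, or 0 to 8 and 10 to 19 counts. Only naive WT had more than 34 counts a library. Markers of other cells that can express Fcgr2b or Ccl6 were read in the same libraries. Of the 8 mast cell and basophil markers, Prss34 (0 to 6.81 CPM), Fcer1a (0 to 0.941) and Ms4a2 (0.143 to 0.653) were read in naive WT and were at 0 in all libraries of the 3 other groups, and Gata2 stood at 1.13 to 1.96 in naive WT against 0 to 0.797 in naive KO. Cpa3 (0 to 1.57 CPM in naive WT and 0 to 0.856 in naive KO) was higher in every treated library than in naive KO, at 1.51 to 2.70. Mcpt8 stood at 0.286 to 2.35 in naive WT, at most 0.0802 in naive KO and 0.63 to 2.01 in treated libraries, and Hdc at 0.2 to 3.03, 0 to 0.504 and 0 to 0.454. The summed list, mostly Il3ra, was 11.1 to 26.6 CPM in naive WT against 12.2 to 23.2 in naive KO. The sum of 12 B cell markers, mostly Ighm, was 191 to 228 CPM in naive WT against 160 to 226 in naive KO and 122 to 140 in treated libraries. In it, Cd22 was higher in every naive KO library (9.64 to 14.9) than in naive WT (3.25 to 8.65), and Cd79a and Ms4a1 stayed at or below 4.57. The sum of 12 monocyte and macrophage markers was 7.53 to 12.7 CPM in naive WT, at least 10.2 in naive KO and 18.6 to 27.7 in treated libraries. Their part in these 2 results was not tested. In bulk RNA, fewer cells of a type and less RNA per cell cannot be told apart.

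Genes near Fcer1g were counted apart. Of 158 tested genes starting within 10 Mb of it, Fcgr2b was higher and Cadm3 and Gm4955 were lower in the interaction (1.9% against 1.54%). These neighbours made up 6 of the 11 genes that IL-15-treated KO cells had above WT (0.0824% of all genes) and 6 of the 7 lower (0.0525%). Gm4955, a predicted gene of the HIN-200 region (GRCm38 chr1:173468509-173491041, minus strand), stood at 60.2 to 83.6 CPM in naive WT against 4.24 to 7.05 in naive KO, 41.3 to 60.3 in treated WT and 0.831 to 1.38 in treated KO. KO was below WT in both states and more so under IL-15 (−3.66 and −5.43; interaction −1.78 ± 0.26, adjusted p = 0.00277). Its transcript aligned to Ifi208 at 92.3% over 1370 bases, so its reads may be shared. Cadm3, an adhesion molecule, had 0 to 73 counts a library. Its interaction of −5.40 ± 1.33 (adjusted p = 0.0489) lost its call in 14 of 16 fits that left out 1 library.

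Of 40 genes of IL-2 and IL-15 receptors, the STAT5 response and SOCS feedback, Cish, Xbp1 and Ccnd3 had a higher and 0 a lower interaction. These were 7.5% of the list, against 1.54% of all genes, and the list median was −0.05. Cish is a STAT5 target that damps cytokine signals. Its RefSeq window (chr9:107296409-107296708, plus strand) is shown because it holds a pair of matches to the STAT motif TTCNNNGAA (both strands), in capitals. Of all genes with a window, 9.55% hold at least 1 match. The share was 4.26% for genes with a higher interaction and 9% for those with a lower one. The 2 windows of Ccnd3 held 0 matches.
Cish: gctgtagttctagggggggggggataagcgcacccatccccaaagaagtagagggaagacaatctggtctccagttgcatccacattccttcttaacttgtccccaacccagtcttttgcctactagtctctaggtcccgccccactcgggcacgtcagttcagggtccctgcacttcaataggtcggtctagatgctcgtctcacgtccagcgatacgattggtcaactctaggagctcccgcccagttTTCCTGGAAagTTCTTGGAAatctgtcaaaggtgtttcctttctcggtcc
Cish stood at 9.47, 20.2, 17.7 and 18.6 CPM in naive WT, 10.9, 8.1, 7.16 and 7.3 in naive KO, 48.4, 60.3, 59.6 and 51.3 in IL-15 WT, and 73, 66.7, 62.8 and 61.8 in IL-15 KO. Naive WT replicate 1 overlapped naive KO. All treated KO libraries were above all treated WT libraries, but the closest stood at 61.8 and 60.3 CPM. The KO minus WT value under IL-15 did not pass (0.27 ± 0.18). IL-15 raised Cish in WT (1.73 ± 0.19) and more in KO (3.00 ± 0.20), with an interaction of 1.27 ± 0.26 (adjusted p = 0.0206). In 4 of 16 fits leaving out 1 library the interaction did not pass (adjusted p up to 0.0597).

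Xbp1, a transcription factor of the unfolded protein response, stood at 122 to 141 CPM in naive WT against 74.2 to 90.9 in naive KO. With IL-15 it was at 118 to 131 in WT and 120 to 143 in KO. Only naive KO was apart, and the interaction was 0.77 ± 0.14 (adjusted p = 0.00856). Ccnd3, cyclin D3, stood at 580 to 669, 413 to 448, 336 to 419 and 369 to 428 CPM in the same order of groups (0.58 ± 0.13, adjusted p = 0.0347), and 10 of 16 fits that left out 1 library ended its call. The receptor chains Il2rb, Il2rg and Il2ra and the transcription factor Stat5a did not pass, with values of 0.10, −0.04, 0.19 and −0.30. Socs2 and Pim2, also STAT5 targets, stood at −0.85 and −0.74 without passing.

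P4ha1, a subunit of the collagen prolyl hydroxylase induced in hypoxia, was the 1 called gene among 35 of glycolysis and the hypoxia response (2.86%, against 1.54% of all genes). It stood at 44.8, 104, 72.1 and 78 CPM in naive WT and at 29.6, 26.3, 18.7 and 25.1 in naive KO. Treated libraries lay at 104 to 133 in WT and 106 to 135 in KO. The naive groups did not overlap, the treated groups did, and the rise with IL-15 was 0.69 ± 0.19 in WT and 2.22 ± 0.20 in KO (interaction 1.53 ± 0.27, adjusted p = 0.00844). Crem, a cAMP-responsive repressor, was the 1 called gene among 42 immediate early genes (2.38%, against 1.54% of all genes). Its interaction was 1.00 ± 0.22 (adjusted p = 0.027), and 6 of 16 fits leaving out 1 library ended the call. Dynll1, a dynein light chain, had 207 to 294 CPM in naive WT and 57 to 107 in the 12 other libraries (1.53 ± 0.23, adjusted p = 0.00286).

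Large cytoskeletal and scaffold genes were the gene list with the most lower calls, 13 of the 142. They encode motors, crosslinkers and membrane scaffolds with which NK cells move and form synapses. Of 57 tested, 13 had a lower and 0 a higher interaction (22.8%, against 1.54% of all genes), and the list median was −0.94 log2 units. In naive cells 42 of the 57 were higher in KO (11.1% of all genes) and 0 lower (9.22%), with a median of 1.00, and under IL-15 the median was 0.06. The list was chosen with earlier results of these data known, and the naive libraries enter the interaction. Neither share is therefore independent support. The median exon length of the list was 16237 bases, and 4.06% of all genes of at least 10 kb had a lower interaction. Leaving out IL-15 WT replicate 2, in which long genes read low, made the count 36 lower; leaving out naive KO replicate 1 made it 12. Over the 16 fits that left out 1 library it ran from 7 to 36.

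Myh9, the heavy chain of nonmuscle myosin IIA (GRCm38 chr15:77760587-77842175, minus strand), stood at 145, 73.1, 59.8 and 123 CPM in naive WT and at 883, 610, 421 and 498 in naive KO. Under IL-15 it stood at 1522, 1055, 1776 and 1814 CPM in WT and at 1924, 1712, 1797 and 1457 in KO. Levels rose from naive WT through naive KO to the treated groups, which overlapped. The interaction was −2.43 ± 0.36 (adjusted p = 0.00295), with IL-15 rises of 3.94 ± 0.29 in WT and 1.51 ± 0.26 in KO.

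Talin 1 (Tln1), which ties integrins to actin, stood at 320, 211, 126 and 356 CPM in naive WT, 1335, 954, 844 and 887 in naive KO, 1025, 728, 1203 and 1215 in IL-15 WT, and 1242, 1157, 1158 and 973 in IL-15 KO. Here naive WT was the only group apart (interaction −1.87 ± 0.35, adjusted p = 0.0108), and KO did not pass a change with IL-15 (0.17 ± 0.24). Pericentrin (Pcnt), a centrosome scaffold, stood at 4.75 to 6.45 CPM in naive WT against 12.4 to 24.3 in naive KO and 83.4 to 125 in the treated libraries (−1.70 ± 0.26, adjusted p = 0.00304). IL-15 raised Pcnt in both genotypes. Ahnak, a giant membrane scaffold, had 344 to 599 CPM in naive WT against 971 to 1919 in naive KO and 1226 to 2780 under IL-15 (−1.74 ± 0.34, adjusted p = 0.014).

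The other called members were the crosslinkers Plec and Utrn, the spectrins Spna2 and Spnb2, the dynein heavy chain Dync1h1, the myosin Myo9b, the anchor Akap13 and the IP3 receptors Itpr2 and Itpr3, with interactions from −1.73 to −1.17. Of these 9, the calls for Plec, Dync1h1, Myo9b, Utrn, Akap13 and Itpr3 were lost in 5, 7, 8, 9, 11 and 12 of 16 fits that left out 1 library, and that for Akap13 also with the length and GC offset (adjusted p = 0.102). Outside this list, Ccdc88c, Map3k14 (NIK, a kinase of the noncanonical NF-κB pathway) and Numa1, a spindle protein, were also among the 12 most negative. Map3k14 stood at 5.18 to 10.9 CPM in naive WT against 24.8 to 37.8 in naive KO, and at 25.3 to 35.1 under IL-15 (−1.82 ± 0.28, adjusted p = 0.00304).

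Exon length moved with these values. Of the 13344 genes, 98.6% had an exon length. The median interaction was 0.21 log2 units over 1739 genes under 1.5 kb and −0.32 over 1132 genes of at least 10 kb. The median KO minus WT value went from −0.30 to 0.34 across these bins in naive cells and from −0.08 to 0.01 under IL-15. Genes with a lower interaction had a median exon length of 7593.5 bases, those with a higher interaction 3550.5, and all genes 4113. A lower interaction was called for 4.06% of the genes of at least 10 kb and 0.0575% of those under 1.5 kb. Per library, the long minus short median was −0.79 to −0.42 in naive WT against −0.29 to 0.14 in naive KO, −0.46 to 0.66 in treated WT and 0.08 to 0.51 in treated KO.

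With a length and GC offset fitted per library, 94 genes had a higher and 129 a lower interaction, of which 48 and 102 were among the 63 and 142. The cytoskeletal median became −0.42, with 12 of 57 lower, while the chaperone median stayed at 0.65 with 12 of 38 higher. Under this offset Myh9 stood at −1.88, Tln1 at −1.44 and Hsph1 at 2.65, and all 3 passed. The part of exon length in these results beyond this offset was not tested.

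**Figure D3:**
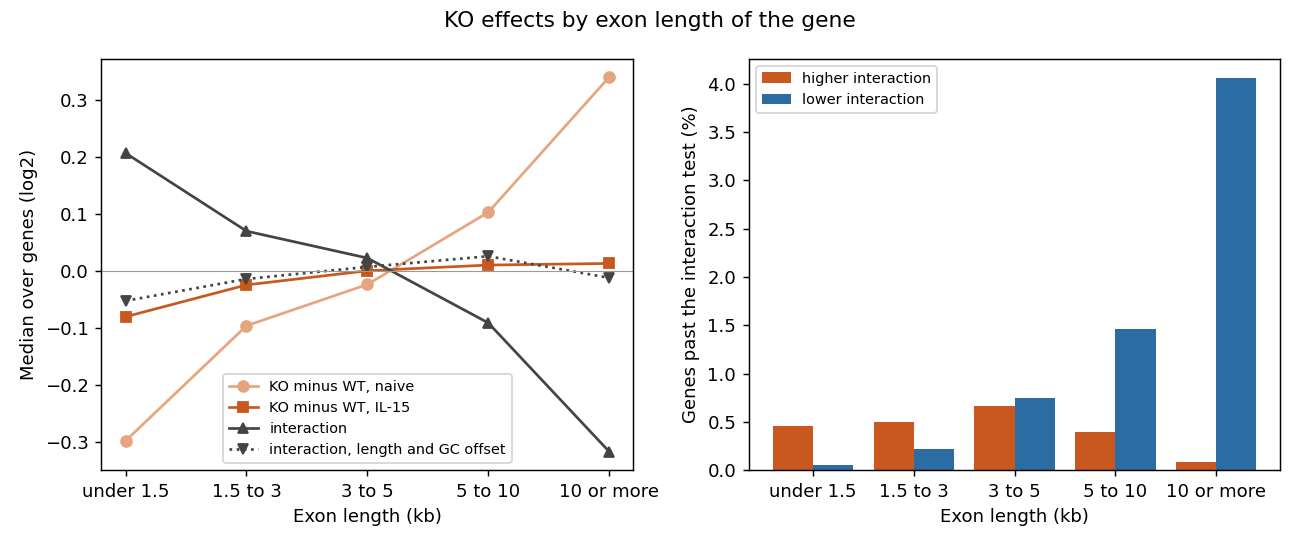
Genes binned by exon length (x axis, kb): left, the median log2 value over genes of KO minus WT in naive spleen and under IL-15, of the interaction, and of the interaction with a length and GC offset; right, the percentage of genes in each bin past the interaction test, orange higher and blue lower. The naive KO effect goes from −0.30 to 0.34 with length, the IL-15 line stays between −0.08 and 0.01, and lower calls reach 4.06% at 10 kb or more.

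Of 36 cold-inducible and nuclear RNA-binding protein genes, 6 had a lower interaction, among them Cirbp, Hnrpdl, Rbm3, Srrm1 and Hnrnpd, and Tra2a had a higher one (19.4%, against 1.54% of all genes; list median −0.23). Higher and lower calls numbered 4 and 8 with the length and GC offset, 4 and 9 with DESeq2 and 7 and 10 with voom and library weights, so the list had members in both directions. In naive cells 11 were higher (11.1% of all genes) and 10 lower (9.22%) in KO. Cirbp, the cold-inducible RNA-binding protein (GRCm38 chr10:80165985-80172786, plus strand), stood at 60.6, 21.3, 28 and 20.7 CPM in naive WT and at 124, 104, 142 and 139 in naive KO. Treated libraries stood at 89.2, 123, 87.2 and 89 in WT and at 109, 80.5, 98 and 90.2 in KO. Naive WT was the only group apart, and the interaction was −2.00 ± 0.36 (adjusted p = 0.00876).

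Rbm3, the other cold-inducible member, stood at 219 to 277 CPM in naive WT against 413 to 561 in naive KO, 570 to 717 in treated WT and 486 to 637 in treated KO (−1.10 ± 0.17, adjusted p = 0.00336). Hnrpdl, a splicing regulator, stood at 41.5 to 56.6, 93.7 to 135, 164 to 194 and 160 to 181 CPM in the same order (−1.44 ± 0.17, adjusted p = 0.000656). For both, the naive groups were apart and the treated groups overlapped. The exon length of Cirbp was 2604 bases, and its interaction with the length and GC offset was −2.03. The calls for Srrm1, Tra2a and Hnrnpd were lost in 13, 12 and 6 of 16 fits that left out 1 library.

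Clspn, which supports checkpoint signalling at replication forks, was the 1 called gene among 48 of DNA replication and S phase (2.08%, against 1.54% of all genes). It stood at 1.55 to 1.93 CPM in naive WT against 4.13 to 8.74 in naive KO, 71 to 94.1 in treated WT and 80 to 96.1 in treated KO. IL-15 raised it in both genotypes, by 5.55 ± 0.20 and 3.99 ± 0.19 log2 units (interaction −1.57 ± 0.25, adjusted p = 0.00468). The median interaction of the 48 genes was 0.14, so Clspn did not share its direction with the list. The mitosis list of 58 had 1 called gene (1.72%), the condensin subunit Ncaph (0.91 ± 0.21, adjusted p = 0.0305), and a list median of 0.02. The Ncaph call ended in 10 of 16 fits leaving out 1 library.

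Of 12 lectin receptor genes of the CD94 and NKG2 kind, Clec2d was lower and Klre1 higher (16.7%, against 1.54% of all genes). Clec2d, a ligand of inhibitory NKR-P1 receptors, stood at 15.8 to 23.6 CPM in naive WT against 34.7 to 57.5 in naive KO and 97.1 to 161 in the treated libraries (−1.34 ± 0.25, adjusted p = 0.0124). Klre1, an NK lectin receptor and 1 of the 10 NK markers, stood at 848 to 986 CPM in naive WT against 354 to 468 in naive KO, 196 to 294 in treated WT and 172 to 224 in treated KO. KO was below WT in naive cells and overlapped it under IL-15 (0.77 ± 0.19, adjusted p = 0.0496). The call was lost in 15 of 16 fits leaving out 1 library and with the length and GC offset (adjusted p = 0.113).

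**Figure D4:**
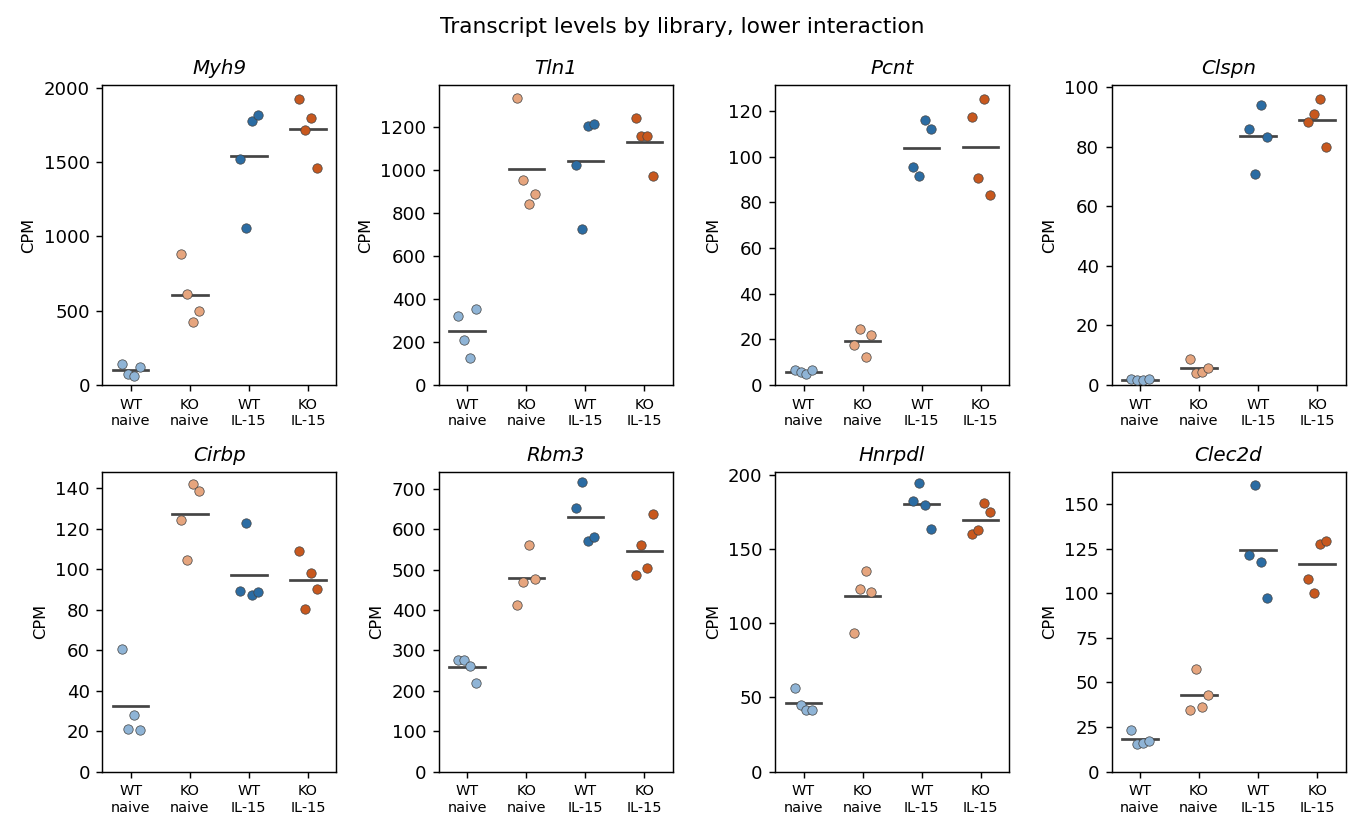
CPM (y axis, from 0) in each of the 16 spleen libraries for 8 genes with a lower interaction; points are libraries, bars are means of 4, and colours are groups. Naive KO lies above naive WT in every panel; the mean of Tln1 in naive KO is near the treated means and that of Cirbp above them, while Pcnt, Clspn and Clec2d remain below it.

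The 12 genes whose IL-15 changes passed in opposite directions were 8 that fell in WT and rose in KO (Ahsa2, Stip1, Hspa8, Hsp90aa1, Gm12346, Gm15459, Rbm14 and Ywhah) and 4 that rose in WT and fell in KO (Pbxip1, Phf20, Slc14a1 and Os9). Pbxip1, a partner of PBX homeodomain proteins, stood at 154 to 222 CPM in naive WT against 331 to 406 in naive KO, 225 to 268 in treated WT and 213 to 259 in treated KO. Its naive groups were apart, and its treated groups overlapped each other and, in 1 treated KO library, the range of naive WT, with changes of 0.37 ± 0.12 in WT and −0.60 ± 0.12 in KO (interaction −0.97 ± 0.16, adjusted p = 0.00533). Slc14a1, a urea transporter, changed by 0.68 in WT and −0.55 in KO (−1.23 ± 0.25, adjusted p = 0.0151). Ywhah, a 14-3-3 protein, Os9 and Rbm14 lost their call in 10, 9 and 4 of the 16 fits leaving out 1 library, and Phf20 with the length and GC offset (adjusted p = 0.0507).

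In many gene groups of NK cells no member passed. There were 0 calls among 12 Ly49 receptor genes, 29 granule and death ligand genes, 30 ILC1 and residency genes, 31 egress and integrin genes, 44 sterol and fatty acid genes, 43 interferon-stimulated genes, 24 TGF-β receptor and SMAD genes and 22 BCL2 family genes. Only 1.54% of all genes passed, so 0 calls in lists of this size say little about these groups. The medians of these lists ran from −0.16 to 0.13. With the length and GC offset, 2 Ly49 genes and 1 sterol and fatty acid gene were lower, and the Ly49 median was −0.41 against 0.03 without it; without naive KO replicate 1 the Ly49 median was −0.11. Some groups without a call had larger medians: 0.34 over 79 ribosomal proteins, 0.37 over 14 subunits of the CCT chaperonin, 0.24 over 74 nuclear oxidative phosphorylation subunits and 0.21 over 39 proteasome subunits. With the length and GC offset these 4 medians were 0.18, 0.195, 0.10 and 0.12. In the same groups 30, 10, 25 and 12 members were lower in naive KO (9.22% of all genes) and 0 were higher (11.1%). Among 44 NK transcription factors, Eomes and Tbx21 did not pass. Kdm6b (−1.68 ± 0.36, adjusted p = 0.0238) and Bach2 (−0.96 ± 0.23, adjusted p = 0.0434) were lower, or 4.55% of the list against 1.54% of all genes. Their calls were lost in 7 and 11 of 16 fits leaving out 1 library, and that for Bach2 with the length and GC offset (adjusted p = 0.0959).

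**Figure D5:**
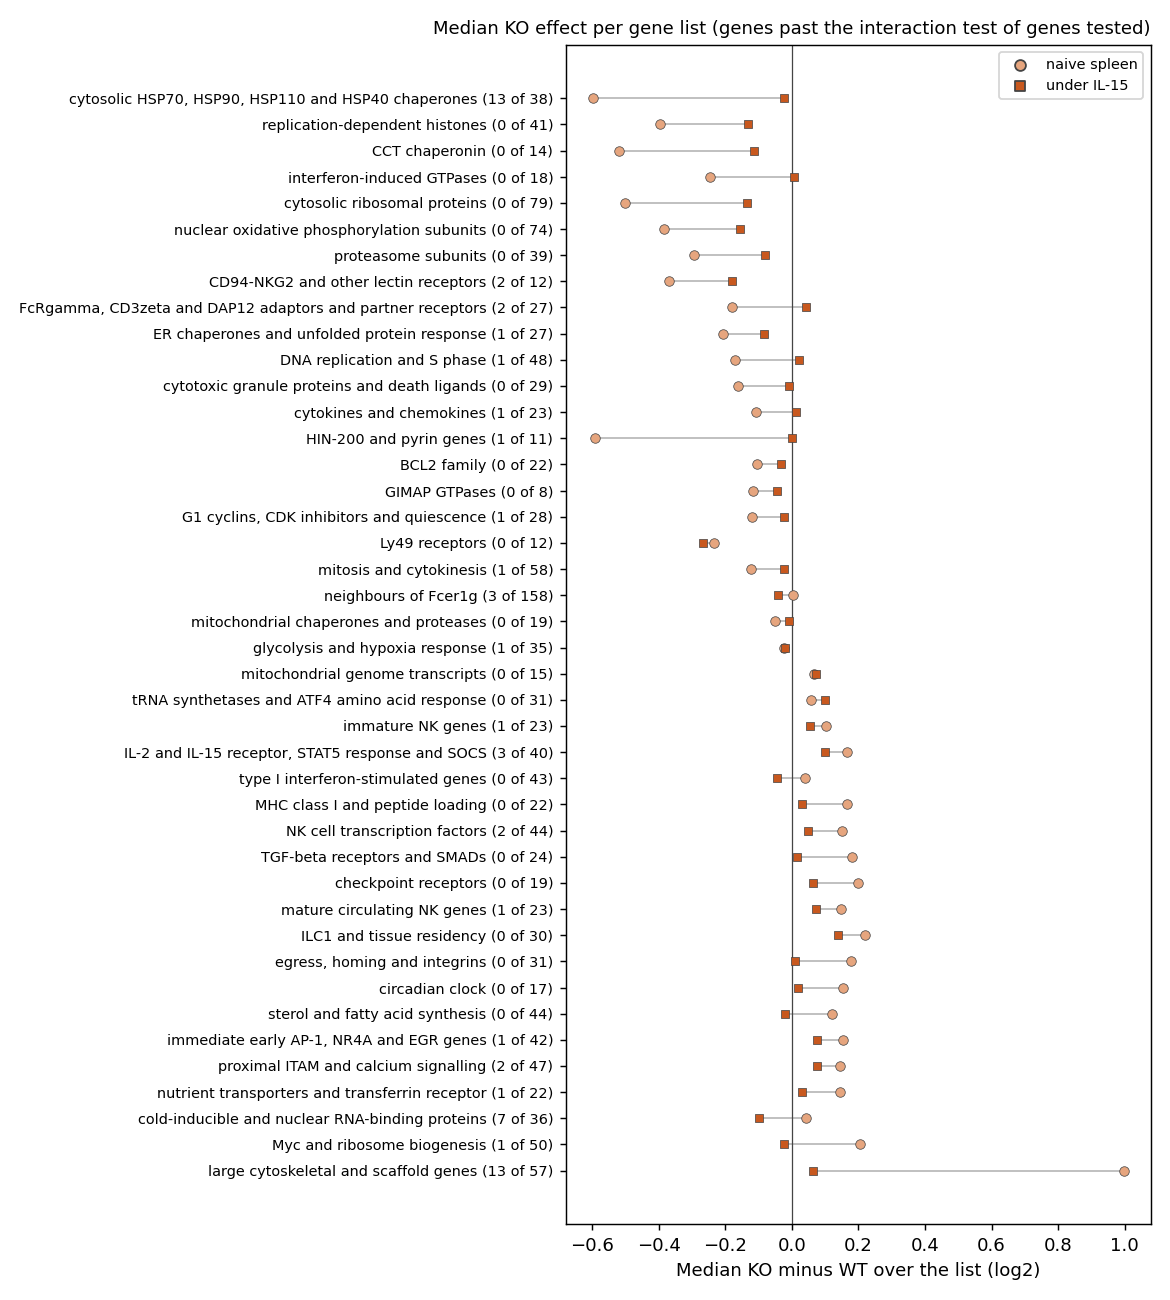
Median KO minus WT value (x axis, log2) over the tested members of each gene list with at least 8 members, circles for naive spleen and squares for IL-15; lists are ordered by median interaction, and labels give the genes past the interaction test and the genes tested. Chaperones lie at −0.60 in naive cells and −0.02 under IL-15, and large cytoskeletal genes at 1.00 and 0.06.

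Marker lists of other cells were summed in the same libraries. The NK sum was 23679 to 25781 CPM in naive WT against 18494 to 21382 in naive KO, and 8050 to 9952 in treated libraries. Its largest member, Gzma, had means of 8897 CPM in naive WT and 6149 in naive KO. Eomes (667 and 712) and Il2rb (3197 and 3335) had higher means in naive KO, and the other NK markers had lower ones. Platelet markers summed to 19.4 to 42.4 CPM in naive WT against 38.8 to 62.4 in naive KO and at most 2.12 under IL-15, and neutrophil markers to at most 2.96 in any library. T cell sums, mostly Cd28, Trbc1 and Trbc2, were 261 to 330 in naive WT against 310 to 380 in naive KO. Among their members, Cd3d did not overlap, at 14.2 to 22.7 in naive WT against 24.8 to 46.4 in naive KO. The lowly read Cd5 was also higher in every naive KO library. Cd3e and Cd3g had higher means in naive KO with overlapping libraries, and Trbc2 and Cd6 had lower means there. Dendritic cell sums, mostly Itgax, were 554 to 791 in naive WT and 809 to 997 in naive KO. Stroma and endothelium sums, mostly Pecam1, were 59.6 to 82.7 and 112 to 135, and erythroid sums, mostly Car2, 271 to 284 and 178 to 239. The stromal marker Dcn was at 0 in all libraries. The naive groups did not overlap in the NK, dendritic, stromal and erythroid sums. The part of these differences in the interaction was not tested.

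The 8 lung libraries share no sample with the interaction, and were read for the same genes after the spleen results were known. Of 13129 genes tested there with edgeR, 82 (0.625%) differed between KO and WT. Of the 63 genes with a higher interaction in spleen, 24 were lower in lung KO, where 0.320% of all genes were lower, and 0 were higher (0.305%). Their median was −0.46 log2 units against 0.0017 over all genes. Among the 24 were Fcer1g, the targeted gene itself, and the near-identical chaperone copies Gm12346, Gm15542 and Gm7816, which are not separate chaperones. The 24 included all 13 called chaperones of the list, and Dnaja4 from outside it (−0.79). Hsph1 stood at 525 ± 160 CPM (SD, n = 4) in lung WT and 143 ± 54.7 in lung KO (−1.87 ± 0.28 SE, adjusted p = 0.00646). Stip1 stood at 416 ± 93.9 and 153 ± 28.4 (−1.44 ± 0.18, adjusted p = 0.00235). Fcgr2b and P4ha1 were also lower, by −3.51 and −1.33. Of the 142 genes with a lower interaction, Slc14a1 and Sgsh were higher in lung KO, Gm4955 was lower, and the median was 0.18. Cish and Xbp1 did not pass in lung (0.05 and −0.14), and Ccl6 stood at 10.1 ± 3.38 CPM in lung WT and 23.6 ± 7.81 in lung KO without passing (adjusted p = 0.104), opposite to its naive spleen direction.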

How the data were processed

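The authors deposited RSEM expected counts per gene (estimated counts, 5.47% not whole) for 38215 genes in 24 libraries; cutadapt 1.9, STAR 2.5.2a, RSEM 1.2.30 and GRCm38 are named in the submitters' processing notes, without settings or annotation release. RNA was extracted and poly(A) selected with a directional kit, per the labels' protocols. The expected counts were rounded to whole numbers. The 16 spleen libraries (9.68 to 32.1 M counts) were fitted together, with 1 mean per group, by the quasi-likelihood F test of edgeR 4.0.16 (R 4.3.3) after filterByExpr and TMM scaling. Benjamini-Hochberg adjustment ran over all 13344 genes within each contrast, with a threshold of 0.05, and all adjusted p-values for genes come from this test unless another tool is named. Standard errors are the size of the log2 value divided by the root of F. CPM use TMM-scaled totals of the genes tested; a prior count of 2 was used only for log CPM in library profiles.

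The members and the 42 gene lists and 13 marker lists were chosen with earlier results of these data known, so the lists are described by counts and medians only. Named genes were Fcer1g, the 12 largest passing interactions each way (a group mean of 1 CPM or more), up to 3 per list by smallest p, and up to 10 with opposite IL-15 changes; predicted genes were skipped. Other called members of the chaperone, cytoskeletal and RNA-binding lists and the predicted genes in the text were chosen after their values were seen, and part of the 51 named genes is printed; some values are not reported here. Exon lengths are GENCODE M21 exon unions, and GC content is that of the longest GENCODE transcript of each gene. Copies were found by BLAST against the protein-coding transcripts of GENCODE. The models were tested on simulated data.

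The fits were repeated using DESeq2 1.42.0, edgeR on DESeq2 size factors, limma 3.58.1 (voom, weighted libraries), no filter and a stricter one, all 24 libraries, blocks by replicate and by library number, a length and GC offset alone and with the replicate block, removal of mitochondrial genes, and each library left out. Leaving out 2 libraries together and the list counts under each alternative were added after the data were seen.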

Additional observations from a re-analysis of the deposited data

Results flagged for a closer look

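The genotype effect differed between naive and IL-15-treated cells for 63 genes with a higher and 142 with a lower interaction, by the interaction test itself. Among 136 sets of 4 libraries examined (3 library measures and 31 genes in 4 groups), 11, or 8.09%, held a library whose gap to its nearest neighbour was large against the range of its group; chance alone flags about 5%.

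IL-15 WT replicate 2 stood apart in 4 sets: its total was 21.18 M counts (others 29.79 to 30.55), Fcer1g stood at 329.7 CPM (254.2 to 262.3), Hsph1 at 51.06 CPM (62.39 to 63.74) and Cirbp at 122.7 CPM (87.16 to 89.21). IL-15 WT replicate 3 had 2.783% of counts from mitochondrial genes (1.762 to 1.878). Naive KO replicate 1 stood apart in Hsph1, at 78.08 CPM (36.5 to 43.17), and in Crem, at 10.83 CPM (15.59 to 16.49). Without it the Hsph1 interaction was 2.82.

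Naive WT replicate 1 was high in Clec2d, at 23.6 CPM (15.83 to 17.15). Naive WT replicate 2 was high in Hsp90aa1, at 1284 CPM (741.8 to 817.4), and in Ccnd3, at 668.8 CPM (579.9 to 589.2). Naive WT replicate 4 had a long minus short value of −0.42 log2 units (−0.79 to −0.73).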

How the results depend on the processing

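All 205 called genes kept the direction of their interaction under each of the 11 other analyses and 16 fits that left out 1 library, wherever they were tested; calls were less stable. Genes with a higher and a lower interaction numbered 218 and 474 with DESeq2, 502 and 818 with voom and library weights, 97 and 271 with all 24 libraries and 352 and 600 without naive KO replicate 1 and IL-15 WT replicate 2 together. Leaving out 1 library gave 28 to 301 higher and 54 to 413 lower; the most came without IL-15 WT replicate 2, and the fewest without IL-15 WT replicate 4 (higher) and IL-15 KO replicate 4 (lower). All 16 such fits kept 27 higher and 49 lower genes. For libraries with the same replicate number, the correlation (r) of their deviations from the group means was −0.21 to 0.28 over 24 pairs. No range for unmatched pairs was read, so these values can neither show nor exclude a pairing. With the replicate number as a block the counts were 45 and 104. Library numbers, shared by 6 pairs (r −0.07 to 0.20), allow a block in which only those 12 libraries inform the interaction: 0 and 0 genes passed in edgeR, 1305 at an unadjusted p under 0.05, with a smallest adjusted p of 0.0767. The KO effect in naive cells was higher for 1475 genes, 955 with the length and GC offset and 827 with the offset and replicate block, and 942 to 1636 (lower 755 to 1711) on leaving out 1 library. The KO effect under IL-15 was higher for 11 genes, 20 with DESeq2, 30 with voom and 18 with all 24 libraries, and lower for 7, 24 with voom; leaving out 1 library gave 7 to 16 and 6 to 9. For IL-15 in WT these ranges were 3247 to 3843 higher and 3062 to 3789 lower, and in KO 2400 to 3121 and 2258 to 2892. Of 51 named genes, 35 kept their call in all 16 fits and 31 also in those analyses except the library block. Itpr2 lost it in 1 of them. At these depths, changes of genes near 1 CPM such as Cadm3 rest on few counts.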
